A study of Homo sapiens with 8 samples.

Results

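Poly(A) site choice was described for a set of RNA-binding proteins that act on the 3′ untranslated regions (3′ UTRs) of other mRNAs: PUM2, the insulin-like growth factor 2 mRNA-binding proteins IGF2BP1, IGF2BP2 and IGF2BP3, QKI, MSI2, and the muscleblind proteins MBNL1, MBNL2 and MBNL3. These 9 genes were taken by name. Of the 9, 7 were listed in the deposited comparisons, with 53 of 27016 pairs of poly(A) sites in one comparison and 49 of 31148 in the other. Site pairs of IGF2BP1 and MSI2 were not analysed here.

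The samples were 4 groups of cultured human breast cancer cells with 2 replicates in each, 8 in all. MDA-MB-231 is a poorly metastatic line and MDA-LM2 is its highly lung-metastatic derivative, and these groups formed the first comparison (MDA-LM2 against MDA-MB-231). The second compared MDA-MB-231 cells given a guide RNA against HNRNPC for CRISPR interference (sgHNRNPC) with MDA-MB-231 cells given a control guide (sgControl). Both of these groups carried a dCas9-KRAB repressor by the study's methods. HNRNPC is a nuclear RNA-binding protein that binds runs of U, and the study asked whether its loss, and the metastatic state, go with a change in the poly(A) sites that mRNAs use. No library was used in both comparisons, and the study's methods describe its sequencing as done in biological duplicate, while the labels do not say what separated the replicates.

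Many mRNAs can be cleaved and polyadenylated at more than one position, so that one gene yields 3′ UTRs of different length. A hexamer close upstream of the cleavage position, most often AAUAAA, is bound by the cleavage and polyadenylation specificity factor and guides the choice. The proteins described here read the resulting 3′ UTRs. PUM2 is a Pumilio protein that recruits deadenylases to mRNAs, the IGF2BP proteins shield bound mRNAs from decay and promote their translation, QKI is a STAR-family protein of splicing and mRNA stability, the Musashi protein MSI2 acts on translation, and the MBNL proteins regulate splicing, mRNA localization and poly(A) site choice itself. Several of them have long 3′ UTRs of their own.

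For every pair of sites in a gene the tables hold a logAPAR, the log change between groups in the ratio of reads at the proximal site to reads at the distal site, with its raw and its adjusted P value, and all 3 are the authors' APAlog values as deposited. A negative logAPAR is a shift towards the distal site and a positive one a shift towards the proximal site. The log base is not named. Values are printed as logAPAR ± implied SE, where the implied SE is the standard error at which that logAPAR gives its raw P value. In these bulk libraries a shift in every cell and a shift in a fraction of the cells cannot be told apart. The tables hold no level of any transcript and no value of a single sample, so markers of the cell line and the level of HNRNPC could not be looked at. Among the poly(A) site pairs of HNRNPC itself the lowest raw P value in the sgHNRNPC comparison was 0.000988, with a logAPAR of -0.43 and an adjusted P of 0.522.

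Sites were numbered within a gene from proximal to distal over both tables, and each site was either the end of an annotated transcript or a genomic position. The submitters' processing notes name hg38, the same assembly as GRCh38, but the positions in the tables do not match it and the tables name no build, so genomic positions were used only as names and for the distance between one and another. Of 19 transcript ends in the 7 genes, 17 were placed on GRCh38 by transcript identifier and version (GENCODE release 44), and wherever 2 or more ends of a gene were placed they lay in the order of the tables. The gene spans in that annotation are chr2:20248691-20352234 on the minus strand for PUM2, chr3:185643130-185825042 on the minus strand for IGF2BP2, chr7:23310209-23470491 on the minus strand for IGF2BP3, chr6:163414000-163578592 on the plus strand for QKI, chr3:152243828-152465780 on the plus strand for MBNL1, chr13:97221434-97394120 on the plus strand for MBNL2 and chrX:132369320-132489968 on the minus strand for MBNL3.

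Within the last 50 nt, AATAAA was found before 4 of the 17 ends and the variant ATTAAA before 0. Among all placed transcript ends of the tables, 48.6% (MDA-LM2 comparison) and 52.0% (sgHNRNPC comparison) had either hexamer. The 4 ends with the hexamer, shown because each ends a long 3′ UTR of its gene, read as follows on the transcript strand of GRCh38, 5′ to 3′, with the hexamer in capitals.
IGF2BP3 site 7, chr7:23310210-23310239, minus strand: gcagAATAAAttttttcatcatttaggtgc
MBNL1 site 3, chr3:152465750-152465779, plus strand: ttgccctAATAAAacttctctttcttaagt
MBNL2 site 2, chr13:97394091-97394120, plus strand: ccaatgaAATAAAagaagcatttaaaagga
MBNL3 site 2, chrX:132372001-132372030, minus strand: gttcttctAATAAAatgcataaacttcttg

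After the last base of the hexamer, 21 nt were left to the end in IGF2BP3, 17 nt in MBNL1, 17 nt in MBNL2 and 16 nt in MBNL3. The printed IGF2BP3 bases stop 1 nt before the end, and those of the MBNL genes run up to it. The other 13 placed ends had neither hexamer in the last 50 nt. The 5 ends below, in lower case throughout, are shown because they are partners in the precisely measured pairs described further on or are the distal end of their gene.
IGF2BP3 site 5, chr7:23311127-23311156, minus strand: attttgaagatttttaagcactgataaatt
MBNL1 site 2, chr3:152465189-152465218, plus strand: gtttaaaacttcaacaaaaaaagagagaaa
PUM2 site 5, chr2:20248691-20248720, minus strand: tctctagataaaatacccctctgtacctca
QKI site 1, chr6:163563432-163563461, plus strand: tttctcttgcagcaacagcccaggctgctc
IGF2BP2 site 1, chr3:185689455-185689484, minus strand: ctgggggcacttctcaggccagacagattg

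The last 2 of these are ends that the annotation marks as incomplete, and IGF2BP3 site 2 is another. That made 3 of the 17 placed ends, against 12.2% and 10.3% of all placed ends in the MDA-LM2 and sgHNRNPC comparisons. Incomplete ends had a hexamer in 6.63% and 6.22% of cases over the 2 tables, and complete ends in 54.5% and 57.2%. The genome reads 14 A in the 20 bases that follow IGF2BP3 site 5 and 10 A in the 20 that follow MBNL1 site 2, where the median of all placed ends was 5 for MDA-LM2 and 4 for sgHNRNPC. Those 20 bases held 12 A or more after 5.70% and 5.22% of all placed ends, a class that takes in IGF2BP3 site 5 and not MBNL1 site 2. Oligo(dT) priming can start within an A-rich stretch inside a transcript, and whether it did so here was not tested.

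Motifs that the encoded proteins and HNRNPC are known to bind were looked for in the last 300 nt of the placed transcripts, on the transcript strand only and with overlaps counted once per end. The Pumilio motif TGTANATA (N is any base) was in 0 of 17 ends, against 7.44% and 7.72% of all ends, and the QKI motif ACTAAC was in 1 of 17, that of MBNL2, against 3.47% and 3.36%. A run of TTTTT was in 7 of 17, against 51.2% and 53.7%. The 7 were PUM2 site 5, IGF2BP3 sites 5 and 7, QKI site 2, MBNL1 site 2 and MBNL3 sites 1 and 2. None of the 98 HNRNPC binding-site sequences that the study lists for its reporter library was found in a transcript of the 9 genes, searched over its whole length. Transcripts of other genes were not searched, so no background share stands beside this count. It does not show whether HNRNPC binds the mRNAs of these genes. The motif and sequence counts are matches of letters and nothing else was read from them.

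The tables give no read counts, but the P values show how much signal stood behind each site. Within a gene, the squared implied SE of each pair was the sum of a value for each of its sites, with a largest misfit of 0.0440% over 1841 genes with at least 4 sites for MDA-LM2 and 0.0380% over 2058 genes for sgHNRNPC. Counting error in a logistic model sums in this way, although a spread between replicates specific to each site would too. The study's methods name multinomial logistic regression, which has no term for spread between replicates. The deposited P values are therefore taken to measure counting of normalized reads and not the spread between the 2 replicates of a group. The harmonic mean of the normalized reads of both groups at a site follows from these values in genes with at least 3 sites, and it is called implied reads here. In the 2 tables the implied reads had a median of 10.8 over 24 sites of the regulator genes and of 5.81 over 23. Over all genes with 3 or more sites the medians were 11.0 and 6.26. Of the regulator sites 12 of 24 and 14 of 23 were under 10 implied reads, and all such genes had 47.7% and 59.4% of their sites under 10. The tables were normalized separately, so levels from the 2 are set side by side and were not tested against each other.

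**Figure D1:**
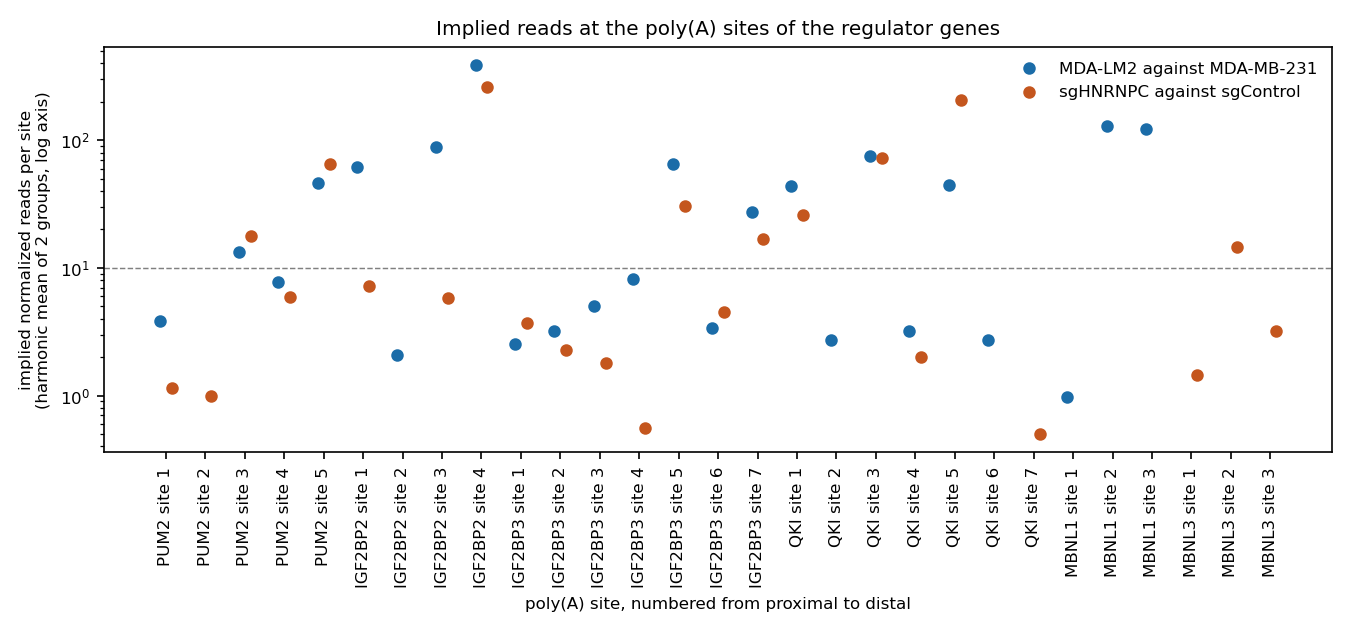
Implied normalized reads (harmonic mean of the 2 groups, log axis) at each poly(A) site of the 6 regulator genes with a value, for MDA-LM2 against MDA-MB-231 (blue) and sgHNRNPC against sgControl (orange); the dashed line is at 10. IGF2BP2 site 4 is the highest in both, at 385 and 261, and most genes have 1 to 3 sites well above the line and the rest below it.

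IGF2BP2 was read mainly at its distal end. Site 4 held 385 implied reads, 71.6% of the gene, for MDA-LM2 and 261, 95.2%, for sgHNRNPC. The MBNL1 signal was divided almost equally between its neighbouring 3′ UTR ends, with 129 (51.0%) at site 2 and 123 (48.6%) at site 3 in the MDA-LM2 table. For IGF2BP3 the shorter 3′ UTR end, site 5, held 65.5 (56.7%) and 30.3 (50.5%), and the full-length end, site 7, 27.6 (23.9%) and 16.8 (28.1%).

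PUM2 was read mainly at its distal end, site 5, with 45.9 (64.8%) and 65.0 (71.5%). Among the 4 genes with implied reads per site in both tables (PUM2, IGF2BP2, IGF2BP3 and QKI), the leading site was not the same in the 2 tables for QKI: site 3 led with 75.0 (43.7%) in the MDA-LM2 table, where site 5 held 44.5 (25.9%), and site 5 led with 207 (67.2%) in the sgHNRNPC table, where site 3 held 72.6 (23.5%). MBNL3 had 3 sites only in the sgHNRNPC comparison, and site 2, with the hexamer, held 14.5 implied reads (75.7%). MBNL2 had 1 pair of sites, from which the reads of each cannot be separated.

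Across the 7 genes no pair of sites was called in either comparison. In MDA-LM2 against MDA-MB-231, 0 of 53 pairs had a raw P under 0.01, beside 0.803% of all 27016 pairs. At a raw P under 0.05 the count was also 0, beside 4.05% of all pairs, and at an adjusted P under 0.05 it was 0, beside 0.0296%. In sgHNRNPC against sgControl, 0 of 49 pairs passed each of these thresholds, beside 0.462%, 1.30% and 0.0899% of all 31148 pairs. A gene with k sites gives k - 1 independent contrasts, so the 53 and 49 pairs amount to 21 and 20. With so few contrasts and these background shares, a count of 0 does not set the regulator genes apart from the rest of the tables.

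Raw P values of the regulator pairs ran from 0.100 to 0.971 in the MDA-LM2 comparison (adjusted P 0.974 to 1.00) and from 0.214 to 0.999 in the sgHNRNPC comparison (adjusted P 1 throughout), all by APAlog as deposited. Of the pairs, 30 of 53 (56.6%) had a negative logAPAR in MDA-LM2, with a median of -0.17 and a range of -1.63 to 1.38, beside 51.0% and a median of -0.015 over all pairs. In sgHNRNPC 27 of 49 (55.1%) were negative, with a median of -0.088 and a range of -1.58 to 1.49, beside 55.2% and a median of -0.077 over all pairs. Taking only the outermost pair of each gene, 6 of 7 were negative in MDA-LM2, with a median of -0.33, beside 52.3% and a median of -0.033 over all genes. In sgHNRNPC 4 of 7 were negative, with a median of -0.23, beside 57.9% and a median of -0.11 over all genes. QKI was the exception in MDA-LM2, and IGF2BP2, PUM2 and MBNL2 were the exceptions in sgHNRNPC. None of these outermost pairs had an implied 95% interval that left out 0. In MDA-LM2 those of PUM2, IGF2BP3 and MBNL1 rested on a site 1 with 3.85, 2.56 and 0.974 implied reads. That of QKI rested on a site 6 with 2.72, while site 1 of IGF2BP2 held 62.2.

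The precision of the pairs sets what could have been seen. The implied SE had a median of 0.836 (0.167 to 1.44) over the 53 pairs and of 1.11 (0.193 to 2.23) over the 49, beside 0.746 and 1.04 over all pairs of the tables. Of the pairs, 10 of 53 and 6 of 49 had an implied SE under 0.5. The pairs are given by gene below, and within a gene the best measured come first.

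PUM2 had sites 3, 4 and 5 as its best read sites, and none of the pairs among them lay further from 0 than its implied SE. Site 5 is the end of the full-length transcript, with a 3′ UTR of 2894 nt, and sites 2 to 4 are genomic positions. From site 3 to site 5 the logAPAR was -0.076 ± 0.440 (raw P 0.863) in MDA-LM2 and 0.27 ± 0.378 (raw P 0.481) in sgHNRNPC. From site 4 to site 5 it was -0.33 ± 0.548 (raw P 0.543) and -0.095 ± 0.608 (raw P 0.876), and from site 3 to site 4, 0.26 ± 0.637 (raw P 0.686) and 0.36 ± 0.672 (raw P 0.591). Among these sites the signs were alike in both comparisons for the pairs with site 4 and opposite for sites 3 to 5.

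PUM2 site 1 lies 62949 nt upstream of site 5, at the end of a transcript annotated for nonsense-mediated decay, inside exons of other PUM2 transcripts. It held 3.85 implied reads for MDA-LM2 and 1.14 for sgHNRNPC. Its pairs with sites 3, 4 and 5 gave -0.66 ± 0.818, -0.41 ± 0.881 and -0.74 ± 0.751 in MDA-LM2, all negative, with a lowest raw P of 0.324. In sgHNRNPC they gave -0.088 ± 1.37, 0.27 ± 1.45 and 0.18 ± 1.34, with errors above 1.

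Site 2 of PUM2 was listed in the sgHNRNPC table alone, with 1.00 implied reads. Its pairs were -0.68 ± 1.94 with site 1, 0.59 ± 1.45 with site 3, 0.95 ± 1.53 with site 4 and 0.86 ± 1.42 with site 5. Over all 10 pairs of this gene in that table the lowest raw P was 0.481.

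IGF2BP2, a member of the family that stabilizes bound mRNAs, had the most precise pair among those of the 7 genes. Sites 3 and 4, a genomic position and the end of a transcript of that gene, gave a logAPAR of 0.064 ± 0.167 (raw P 0.700) in MDA-LM2, with an implied 95% interval of -0.263 to 0.392. In sgHNRNPC the same pair gave 0.29 ± 0.593 (raw P 0.620). Both values are small beside their errors.

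The internal end of IGF2BP2, site 1, lies 46325 nt from the end of the gene, in a coding exon of other transcripts, and its transcript is marked incomplete. In MDA-LM2 it was paired with site 3 at -0.28 ± 0.234 (raw P 0.231) and with site 4 at -0.22 ± 0.193 (raw P 0.264). In sgHNRNPC those pairs had the opposite sign, 0.35 ± 0.788 (raw P 0.660) and 0.64 ± 0.533 (raw P 0.230). Site 1 held 62.2 implied reads (11.6% of the gene) for MDA-LM2 and 7.23 (2.63%) for sgHNRNPC.

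The pair of sites 1 and 4 had the lowest P value for a difference between the comparisons among the 39 shared pairs. The sgHNRNPC value minus the MDA-LM2 value was 0.86 (95% interval -0.256 to 1.97, raw P 0.131), which does not pass, with an adjusted P of 1.00 over all shared pairs.

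IGF2BP2 site 2, an end with a 3′ UTR of 30 nt, was listed in MDA-LM2 alone, at 2.09 implied reads. It carried the furthest values of the gene: 1.35 ± 0.995 (raw P 0.176) with site 1, -1.63 ± 0.990 (raw P 0.100) with site 3 and -1.56 ± 0.981 (raw P 0.111) with site 4. The site 2 to 3 value is the lowest logAPAR and the lowest raw P of any regulator pair in that comparison. All 3 pairs rest on the same few reads at site 2, and the SE of each was near 1.

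Among the MBNL genes, MBNL1 gave a pair almost as precise as the best of IGF2BP2. Sites 2 and 3 end 3′ UTRs of 2852 and 3413 nt, 561 nt apart, and only site 3 has the hexamer, as printed above. The logAPAR was 0.19 ± 0.178 (raw P 0.276) in MDA-LM2, with an interval of -0.155 to 0.543, and -0.23 ± 0.247 (raw P 0.344) in sgHNRNPC, with an interval of -0.718 to 0.251. The signs were opposite, and the difference of the 2 values, -0.43 (95% interval -1.02 to 0.169, raw P 0.160), did not pass.

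MBNL1 site 1 was listed in MDA-LM2 alone, with 0.974 implied reads, at the stop codon of its transcript inside exons of other MBNL1 transcripts. Its pairs were -0.91 ± 1.44 with site 2 and -0.72 ± 1.44 with site 3, which were the least precise of that comparison.

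MBNL2 was represented by 1 pair, a genomic position and the end of its 3′ UTR of 2671 nt. The logAPAR was -0.23 ± 0.390 (raw P 0.549) in MDA-LM2 and 0.15 ± 0.814 (raw P 0.854) in sgHNRNPC. Neither value was further from 0 than its SE.

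MBNL3 has a short 3′ UTR of 463 nt at site 1 and a long one of 7665 nt at site 2, and these ends lie 7202 nt apart. From site 1 to site 2 the logAPAR was -0.33 ± 0.660 (raw P 0.616) in MDA-LM2 and -1.16 ± 1.23 (raw P 0.348) in sgHNRNPC. Site 3 was listed in sgHNRNPC alone, at -1.17 ± 1.42 with site 1 and -0.018 ± 0.875 with site 2. Every MBNL3 value was negative, towards the distal site, and every interval held 0. The 2 values below -1 in sgHNRNPC share site 1, which held 1.45 implied reads.

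**Figure D2:**
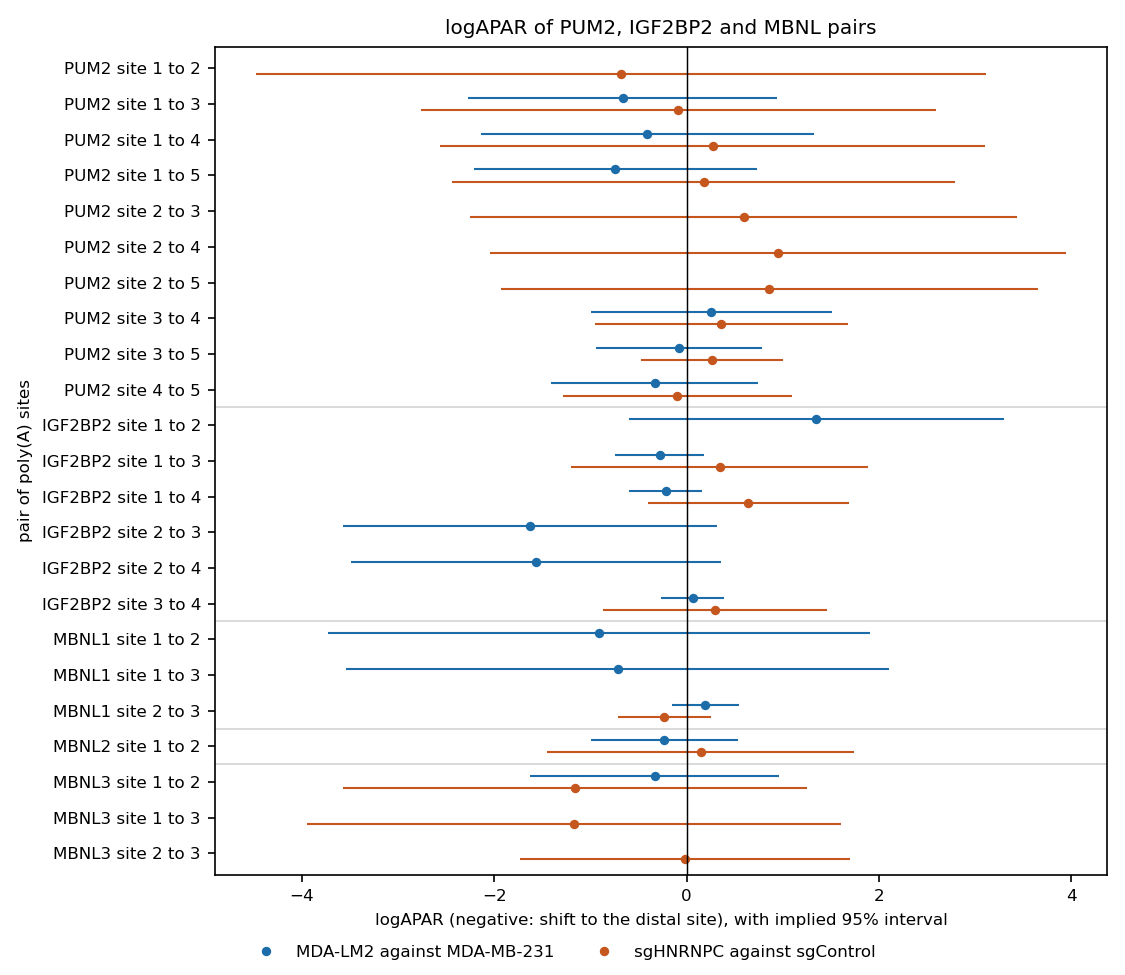
logAPAR of every pair of poly(A) sites of PUM2, IGF2BP2, MBNL1, MBNL2 and MBNL3 (points, horizontal axis on the log scale of the tables) with implied 95% intervals (lines), in MDA-LM2 against MDA-MB-231 (blue) and sgHNRNPC against sgControl (orange). Every interval crosses 0, and the narrowest are those of IGF2BP2 sites 3 to 4 (SE 0.167) and MBNL1 sites 2 to 3 (SE 0.178) in MDA-LM2.

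IGF2BP3, a fetal-type member of the IGF2BP family that many tumours express, had 7 sites and all 21 of its pairs in both tables. The choice between its short and long 3′ UTR was the best measured. Site 5 ends a 3′ UTR of 1235 nt and site 7 one of 2153 nt, 918 nt further on, and only site 7 has the hexamer, as printed above. From site 5 to site 7 the logAPAR was -0.031 ± 0.321 (raw P 0.924) in MDA-LM2, with an interval of -0.659 to 0.598. It was 0.019 ± 0.430 (raw P 0.965) in sgHNRNPC, with an interval of -0.823 to 0.861. Both lie close to 0, and a shift within those intervals could not have been told from none.

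Site 6, a genomic position between those ends, held 3.38 and 4.52 implied reads. In MDA-LM2 the pairs with site 6 as the distal partner were positive, at 1.38 ± 0.914 (raw P 0.130) from site 4, 1.12 ± 0.788 (raw P 0.156) from site 5 and 1.23 ± 0.995 (raw P 0.218) from site 3. With site 6 as the proximal partner of site 7 the value was negative, -1.15 ± 0.814 (raw P 0.158). These pairs share the few reads of site 6, so they are not separate measurements, and none passed a threshold. In sgHNRNPC the same pairs were 1.49 ± 2.0, 0.22 ± 0.713, 0.79 ± 1.25 and -0.20 ± 0.749, with the same signs. The pairs of site 6 with the upstream ends were 0.46 ± 1.17 from site 1 and 0.20 ± 1.10 from site 2 in MDA-LM2, and -0.092 ± 0.992 and -0.094 ± 1.15 in sgHNRNPC.

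Sites 1, 2 and 3 of IGF2BP3 are ends of transcripts without a defined coding region or with a retained intron, and lie inside exons of other transcripts of the gene, 37422, 8929 and 2164 nt from its end. The pair of sites 1 and 2 gave 0.27 ± 1.19 in MDA-LM2 and 0.0026 ± 1.19 in sgHNRNPC. Site 1 against sites 3, 4, 5 and 7 gave -0.76 ± 1.09, -0.92 ± 1.01, -0.66 ± 0.902 and -0.69 ± 0.925 in MDA-LM2. In sgHNRNPC these were -0.89 ± 1.29, -1.58 ± 2.03, -0.31 ± 0.779 and -0.29 ± 0.812. All 8 were negative, and the raw P values were 0.363 or higher.

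Site 2 showed the same signs as site 1. Against sites 3, 4, 5 and 7 it gave -1.03 ± 1.01, -1.19 ± 0.933, -0.92 ± 0.811 and -0.95 ± 0.836 in MDA-LM2. In sgHNRNPC the values were -0.89 ± 1.41, -1.58 ± 2.11, -0.31 ± 0.973 and -0.29 ± 1.00. The lowest raw P among them was 0.203, for site 2 to site 4 in MDA-LM2, and site 2 held 3.19 and 2.27 implied reads.

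The remaining pairs join sites 3 and 4 with the 3′ UTR ends. Site 3 gave -0.16 ± 0.803 with site 4, 0.11 ± 0.656 with site 5 and 0.076 ± 0.687 with site 7 in MDA-LM2, and -0.70 ± 2.16, 0.58 ± 1.09 and 0.60 ± 1.11 in sgHNRNPC. Site 4 gave 0.27 ± 0.525 with site 5 and 0.24 ± 0.563 with site 7 in MDA-LM2, and 1.27 ± 1.91 and 1.29 ± 1.92 in sgHNRNPC. The large errors of site 4 in sgHNRNPC go with its 0.560 implied reads there, against 8.17 in the MDA-LM2 table. Of the 21 pairs of this gene 11 were negative in MDA-LM2 and 12 in sgHNRNPC.

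QKI, whose isoforms differ at the 3′ end, had 7 sites over both tables, of which 1 and 2 are transcript ends and 3 to 7 are tandem genomic positions. Site 3 to site 5, 1969 nt apart and the best read genomic positions, gave -0.28 ± 0.268 (raw P 0.288) in MDA-LM2, with an interval of -0.808 to 0.240. In sgHNRNPC it gave -0.24 ± 0.193 (raw P 0.214), with an interval of -0.618 to 0.138. Both values were towards the distal site and of like size, and both intervals held 0. The sgHNRNPC value had the lowest raw P of any regulator pair in that comparison. The difference between the comparisons was 0.044 (95% interval -0.602 to 0.691, raw P 0.893).

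Site 1, the incomplete end in a coding exon 15131 nt from the end of the gene, was also well read, at 43.7 and 26.1 implied reads. It gave 0.11 ± 0.269 (raw P 0.682) with site 3 and -0.17 ± 0.301 (raw P 0.564) with site 5 in MDA-LM2. In sgHNRNPC it gave 0.14 ± 0.323 (raw P 0.674) and -0.10 ± 0.294 (raw P 0.724). The values of each pair were alike in the 2 comparisons and smaller than their errors.

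Site 4 of QKI lies between sites 3 and 5, 1495 nt beyond the first and 474 nt before the second, and held 3.21 and 2.01 implied reads. From sites 1 and 3 to site 4 the logAPAR was -0.30 ± 0.818 and -0.41 ± 0.806 in MDA-LM2, and -0.71 ± 1.04 and -0.85 ± 1.01 in sgHNRNPC. From site 4 to site 5 it was 0.12 ± 0.817 and 0.61 ± 1.00. The signs were the same in both comparisons.

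Sites 2 and 6 of QKI were listed in MDA-LM2 alone, at 2.70 and 2.72 implied reads. Site 2, the end of a 3′ UTR of 391 nt, gave 0.032 ± 0.887 with site 1, 0.078 ± 0.876 with site 3, -0.33 ± 1.17 with site 4 and -0.21 ± 0.886 with site 5. The pairs that end at site 6 were all positive: 0.82 ± 0.884 from site 1, 0.79 ± 1.22 from site 2, 0.71 ± 0.874 from site 3, 1.12 ± 1.17 from site 4 and 0.99 ± 0.884 from site 5, 432 nt upstream. The lowest raw P of these was 0.261, and the outermost QKI pair of that table is one of them.

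Site 7 of QKI, 4993 nt beyond site 3, was listed in sgHNRNPC alone, at 0.501 implied reads. Its pairs were -0.71 ± 2.02 from site 1, -0.85 ± 2.01 from site 3, -0.0030 ± 2.23 from site 4 and -0.61 ± 2.0 from site 5. Each SE was near 2 or above, so these 4 values carry almost no information on their direction. Of the QKI pairs 6 of 15 were negative in MDA-LM2 and 8 of 10 in sgHNRNPC.

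**Figure D3:**
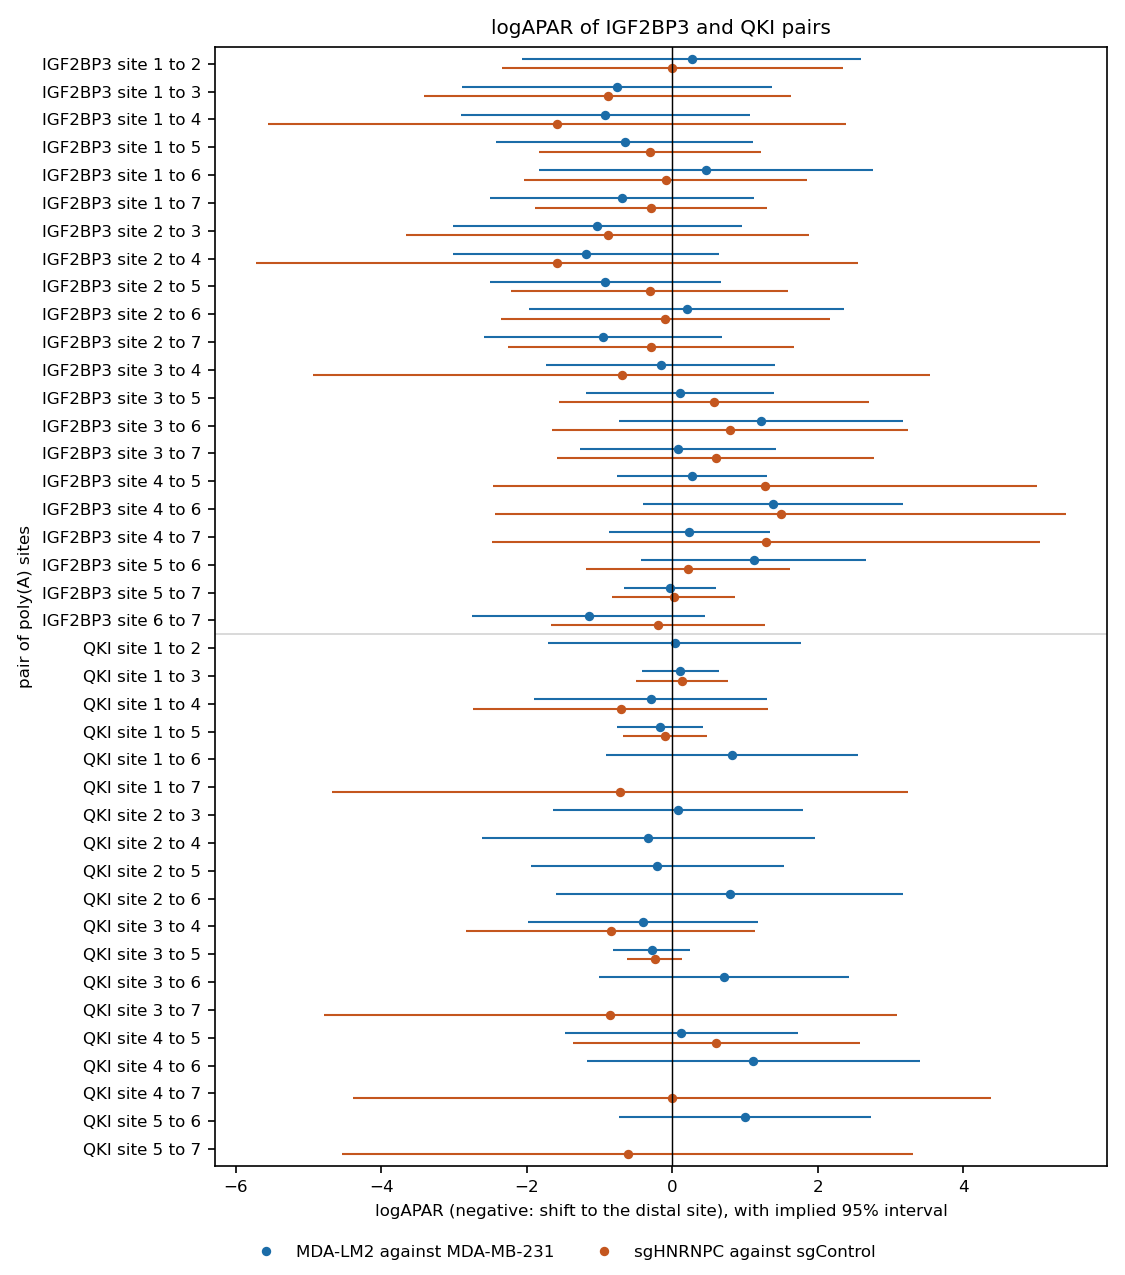
logAPAR of every pair of poly(A) sites of IGF2BP3 and QKI (points, horizontal axis on the log scale of the tables) with implied 95% intervals (lines), in MDA-LM2 against MDA-MB-231 (blue) and sgHNRNPC against sgControl (orange). Every interval crosses 0, and the narrowest is that of QKI sites 3 to 5 in each comparison (SE 0.268 and 0.193), while for IGF2BP3 it is that of sites 5 to 7 (SE 0.321 and 0.430).

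The comparisons had 39 regulator pairs in common, with 14 more in MDA-LM2 alone and 10 in sgHNRNPC alone, 63 in all. The sign was the same in 29 of the 39, with 17 negative in both and 12 positive in both. Of the 21296 pairs in both tables, 21293 had an implied SE in each, and among these the sign was the same in 51.2%. The 39 are not separate measurements, since 21 of them are IGF2BP3 pairs built on 7 sites, and this count was not tested. Pairs with opposite signs included every IGF2BP2 pair that starts at site 1, MBNL1 sites 2 to 3 and the MBNL2 pair.

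The difference between the comparisons was tested for each shared pair from the 2 logAPAR values and their implied SEs, with a two-sided normal P value. No regulator pair passed an adjusted P under 0.05 over these 21293 pairs, beside 0.0047% of all, and 0 had a raw P under 0.05, beside 1.97%. Raw P values of the difference ran from 0.131 to 0.962. The SE of the difference was between 0.305 and 2.31, so even the best measured pair, MBNL1 sites 2 to 3, allows differences from -1.02 to 0.169.

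**Figure D4:**
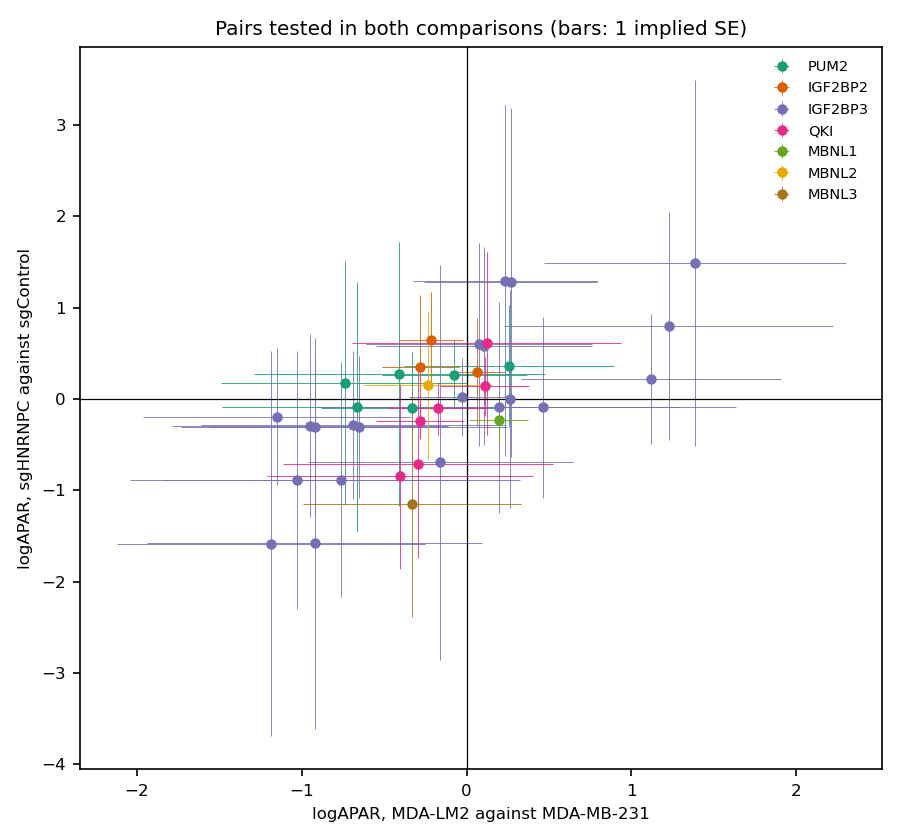
logAPAR in sgHNRNPC against sgControl (vertical) plotted against logAPAR in MDA-LM2 against MDA-MB-231 (horizontal) for the 39 regulator pairs in both tables, coloured by gene, with bars of 1 implied SE. Of the points 29 lie in the lower left or upper right quadrant, and those furthest from the centre are IGF2BP3 pairs with long bars.

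Other proteins that act on 3′ UTRs were counted as a list of 33 genes, which included the CPEB, STAU and FMR1 families, PCBP1, PCBP2, LARP1 and others. In MDA-LM2 23 of them were listed, with 198 pairs, of which 1 (0.505%) had a raw P under 0.01, 4 (2.02%) a raw P under 0.05 and 0 an adjusted P under 0.05. That table had 0.803%, 4.05% and 0.0296% of all pairs at these thresholds. In sgHNRNPC 22 were listed, with 259 pairs, of which 1 (0.386%) had a raw P under 0.01, 9 (3.47%) a raw P under 0.05 and 1 an adjusted P under 0.05. That table had 0.462%, 1.30% and 0.0899% of all pairs at these thresholds. The median logAPAR of the list was -0.063 and -0.044, and 57.1% and 54.8% of its pairs were negative, beside medians of -0.015 and -0.077 and shares of 51.0% and 55.2% over all pairs. Taking only the outermost pair of each gene of the list, 19 of 23 were negative in MDA-LM2 and 12 of 22 in sgHNRNPC, beside 52.3% and 57.9% of all genes and the 6 of 7 and 4 of 7 of the regulator genes above. These counts of direction were not tested.

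The pairs of this list with a raw P under 0.01 lay in 2 genes. KHDRBS1, which encodes the STAR-family protein Sam68 and is thus a relative of QKI, had a logAPAR of -0.57 ± 0.186 in MDA-LM2 (raw P 0.00215, adjusted P 0.765), a shift to the distal site that does not pass adjustment. The same pair was at -0.068 ± 0.203 in sgHNRNPC (raw P 0.737). YBX1, the Y-box protein that binds many mRNAs, shifted to the distal site in sgHNRNPC, at -0.49 ± 0.100 (raw P 1.23e-06, adjusted P 0.00273), and was at -0.13 ± 0.109 in MDA-LM2 (raw P 0.233). The SE of the YBX1 pair is below those of all regulator pairs of the sgHNRNPC comparison, where the smallest was 0.193. The values of the 2 comparisons are set side by side for both genes and no difference between them is called, and their P values too leave out the spread between replicates.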

How the data were processed

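mRNA 3′ ends were sequenced (QuantSeq) in 2 replicates of each of the 4 groups. Per the study's methods, the authors assigned reads to annotated 3′ ends with Salmon 0.14.1 and compared the normalized abundances of site pairs by APAlog, which uses multinomial logistic regression. The submitters' processing notes also name UMI-tools and hg38. The deposited logAPAR is taken here as a natural log, since it is a logistic coefficient, and no fold is given. The deposited raw p-value and adjusted p-value are per pair, and the latter was recomputed exactly by Benjamini-Hochberg over each whole table. These are the authors' own comparison values, used because the tables hold nothing else: no counts, no depth and no value per sample.

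The implied SE was |logAPAR| divided by the two-sided normal z of the raw p-value. A site's variance was solved from the squared SEs of its gene's pairs, and implied reads are 2 over that variance. Scripts were checked on simulated data. Values were computed in Python 3.11.15 with scipy 1.17.1, numpy 2.4.6 and pandas 2.3.3, and plotted in matplotlib 3.10.9. The genes, the list of other regulators and the tests were chosen with earlier results of these data known. All pairs of the 7 listed genes are printed, and of the other regulators those with a pair at raw P under 0.01. Some genes of that list are not reported here and enter none of its counts. Alternatives were other thresholds, kinds of pair, the pair standing for a gene, centring and rescaled errors.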

Additional observations from a re-analysis of the deposited data

How the results depend on the processing

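No paired analysis was possible because single samples have no values here, and leaving out each replicate was not run for the same reason. The count of called regulator pairs was 0 in both comparisons at every threshold, kind of pair and scaling tried; with z-scores rescaled to unit spread, an alternative added once the data had been seen, the lowest raw P was 0.110 in MDA-LM2 and 0.0782 in sgHNRNPC. The count of pairs that differed between the comparisons was 0 under each alternative. The share of pairs with a negative logAPAR did move. In MDA-LM2 it went from 56.6% to 70.0% among the 10 pairs with an implied SE under 0.5. It went to 25.0% among the 8 pairs of 2 genomic positions. In sgHNRNPC it went from 55.1% to 40.0% among 5 pairs with 10 or more implied reads at both sites, also chosen after seeing the data. Those 5 leave out genes with 2 sites, which have no implied reads per site. The negative MBNL1 pair (-0.23 ± 0.247) was left out of them for that reason. These shares rest on few pairs, and pairs of a gene share sites. The share of genes with a negative value went from 85.7% for the outermost pair to 57.1% for the pair with the lowest raw P in MDA-LM2, and in sgHNRNPC from 57.1% for the outermost pair to 42.9% for the most precise pair. Over all pairs, the z-scores that the raw P values imply had a spread (scaled median absolute deviation) of 1.03 in MDA-LM2 and 0.705 in sgHNRNPC. Unit spread goes with evenly spread P values, so the raw P values of sgHNRNPC ran high as a whole. Low reads at many sites limit what these tables can show, and spread between replicates is not in the P values.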
